A study of Mus musculus with 15 samples.

Results

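The 40 genes described here encode the sensors, factors, chaperones and degradation machinery of the unfolded protein response, together with the cytosolic and small heat shock proteins. They were chosen by gene symbol from a table of 47643 symbols. All 40 were found in the table and all 40 passed the filter on low values, which left 11923 genes in all. By role they are 3 sensors of endoplasmic reticulum (ER) stress, 7 transcription factors or genes of translation control, 14 ER chaperones and folding factors, 4 genes of ER-associated degradation, 8 genes of the cytosolic heat shock response and 4 small heat shock proteins.

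When unfolded protein accumulates in the ER, the chaperone BiP leaves the sensors IRE1, PERK and ATF6. IRE1 splices the Xbp1 mRNA, PERK phosphorylates the translation factor eIF2-alpha and so favours translation of ATF4, and ATF6 is cut in the Golgi to release a transcription factor. Unfolded protein in the cytosol is sensed separately, through the factor HSF1, which drives Hsp70, Hsp90 and small heat shock protein genes. In muscle the small heat shock proteins bind the Z-disc and the contractile filaments and are abundant without any stress.

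The study measured mRNA in the tibialis anterior, a fast muscle of the lower leg, 49 days after female C57BL6/J mice received a melanoma xenograft that causes cachexia, the wasting of muscle and fat that accompanies cancer, or a mock injection. Lisinopril, a drug that blocks angiotensin-converting enzyme, was given to some of the mice and a mock treatment to the others. Libraries came from 4 groups: melanoma plus lisinopril (4 libraries), melanoma alone (4), lisinopril without a tumour (3) and mock-injected control (4), all with a labelled age of 7 weeks. The sources used here name neither the melanoma cells nor the drug dose, and 1 time was sampled. The tumour and the time are those of the series' design text. The protocol label speaks instead of 3 weeks after injection of LLC cells, another tumour, so the labels do not settle the time of sampling.

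Levels are given as TPM, transcript abundances that are corrected for transcript length and sum to 1000000 in every library, so the read depth behind them is unknown. Between 10530 and 12363 genes reached 1 TPM per library. The mitochondrial genome took 28.5% to 46.9% of TPM in the 8 tumour-bearing libraries and 40.8% to 52.8% in the 7 tumour-free libraries. Melanoma replicate 2 and control replicate 2 stood apart, with mean correlations to the rest of their groups of 0.938 and 0.937, against 0.965 or more in the other 13 libraries. Where leaving either out moved a tumour effect by over 1.5 times or changed a call, this is stated. Whole muscle was measured, so fewer cells of a type and less RNA per cell cannot be told apart.

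The promoters of 32 of the 40 genes were matched in the RefSeq table (GRCm38.p6, 250 bases before to 50 after the transcription start). The ER stress response element, ERSE, is the bipartite site at which NF-Y sits on CCAAT and ATF6 or XBP1 on CCACG, and it was searched on both strands as CCAAT and CCACG with any 9 bases between them. It was found in 8 of the 32 promoters. The related ERSE-II, searched on both strands as ATTGG and CCACG with any 1 base between them, was found in 2 others, and no site of one element overlaps a site of the other. Of all 32851 promoters in the table, 0.119% hold ERSE and 0.0365% hold ERSE-II. The 11 sites are shown because they all fall among the ER chaperone and degradation genes, 10 of 16 of which, among those with a promoter, hold a site. The sequences are given 5′ to 3′ on the strand of the gene, with the fixed letters of the element in capitals; the reverse form reads CGTGG before ATTGG.
Hspa5 (chr2:34772025-34772043, plus strand, 65 to 47 bases before the start): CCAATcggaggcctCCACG
Calr (chr8:84847075-84847093, minus strand, 162 to 144 bases before the start): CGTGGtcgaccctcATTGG
Hsp90b1, distal site (chr10:86705638-86705656, minus strand, 212 to 194 bases before the start): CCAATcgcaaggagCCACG
Hsp90b1, proximal site (chr10:86705533-86705551, minus strand, 107 to 89 bases before the start): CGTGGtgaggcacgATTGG
Canx (chr11:50325800-50325818, minus strand, 145 to 127 bases before the start): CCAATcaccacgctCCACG
Pdia6 (chr12:17266491-17266509, plus strand, 98 to 80 bases before the start): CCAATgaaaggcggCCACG
Dnajc3 (chr14:118937827-118937845, plus strand, 105 to 87 bases before the start): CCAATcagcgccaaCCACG
Creld2 (chr15:88819520-88819538, plus strand, 126 to 108 bases before the start): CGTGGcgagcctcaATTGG
Syvn1 (chr19:6046532-6046550, plus strand, 44 to 26 bases before the start): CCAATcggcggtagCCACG
Herpud1 (chr8:94386377-94386387, plus strand, 52 to 42 bases before the start): ATTGGgCCACG
Dnajb11 (chr16:22857852-22857862, plus strand, 7 to 17 bases after the start): ATTGGcCCACG

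The promoter of Hspa5, which encodes BiP, is shown whole because BiP is the central ER chaperone, and that of Calr because it is the ER chaperone whose change passed the test below. Both are from RefSeq, GRCm38.p6, with the ERSE letters in capitals.
Hspa5 (chr2:34771840-34772139, plus strand): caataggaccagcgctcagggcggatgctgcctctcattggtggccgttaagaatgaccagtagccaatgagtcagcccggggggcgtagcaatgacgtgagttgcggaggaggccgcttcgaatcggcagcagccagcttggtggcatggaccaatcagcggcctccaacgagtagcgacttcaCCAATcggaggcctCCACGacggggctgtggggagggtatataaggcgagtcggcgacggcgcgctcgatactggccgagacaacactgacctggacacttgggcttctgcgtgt
Calr (chr8:84846882-84847181, minus strand): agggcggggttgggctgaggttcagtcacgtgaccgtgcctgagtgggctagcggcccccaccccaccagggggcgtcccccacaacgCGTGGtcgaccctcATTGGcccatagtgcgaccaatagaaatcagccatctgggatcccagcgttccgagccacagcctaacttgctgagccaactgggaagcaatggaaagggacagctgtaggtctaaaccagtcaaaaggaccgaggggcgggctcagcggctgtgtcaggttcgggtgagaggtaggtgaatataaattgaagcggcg

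Several other elements were searched on both strands in the same windows. TGACGTGG, the core of the XBP1 element UPRE, is in 0.676% of all promoters. TGATGNAAT, the C/EBP-ATF element through which ATF4 acts, is in 0.965%. A heat shock element, searched as GAA, TTC and GAA with any 2 bases between each, is in 0.603%. None of these 3 elements is in the window of any of the 32 genes. A match is a description of the sequence and does not show binding. For all elements only exact fixed letters were searched. A site with a changed letter would be missed, so no match does not show that a site is absent.

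The levels of the 40 genes spanned 3 orders of size in TPM. Trib3, a pseudokinase induced by ATF4, was lowest with a mean of 0.962 TPM over the 15 libraries, and Cryab, the small heat shock protein alpha-B-crystallin, was highest with 967 TPM. The sensors lay between 2.46 TPM (Eif2ak3, which encodes PERK) and 12.2 TPM (Atf6). The ER chaperones lay between 4.69 TPM (Sdf2l1) and 112 TPM (Hspa5). The cytosolic heat shock genes ran from 11.5 TPM (Hspa1b) to 784 TPM (Hsp90ab1), and all 4 small heat shock proteins averaged at least 360.3 TPM (Hspb1).

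In tumour-bearing muscle most of these genes had higher levels than in tumour-free muscle, but few passed the test. With the tumour effect averaged over both drug arms (8 tumour-bearing against 7 tumour-free libraries), Xbp1, Atf4, Ppp1r15a, Calr and Hsp90ab1 were higher and Ddit3 was lower, each at an adjusted p under 0.05 (limma on log2(TPM + 1), Benjamini-Hochberg over all 11923 genes). That is 6 of 40 genes or 15%, against 18.0% of all genes tested, so the share called among these genes is not above the background. Over all genes 14.5% were called higher and 3.45% lower. Of the 40 log2 fold changes 39 were positive, with a median of 0.47, against a median of 0.17 over all genes, of which 69.8% were positive. An unadjusted p under 0.05 was reached by 21 of the 40. The share of all genes at that threshold was not counted and is at least the 18.0% called, so no excess can be read from it.

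The count of 6 moved with single libraries and with the scale. The count over all genes, 2141 of 11923, moved too and is given in brackets. It was 14 of 39 tested genes without control 2 (3953 of 11809), 13 without melanoma 4 (2739 of 11903) and 10 without melanoma plus lisinopril 3 (2230 of 11908). It was 3 without any 1 of control 3 (1167 of 11914), control 4 (1156 of 11895) or melanoma plus lisinopril 1 (1380 of 11906). It was also 3 without melanoma plus lisinopril 4 (1209 of 11878). Without any 1 of lisinopril 1, 2 or 3 it was 2 (743 of 11913, 902 of 11903 and 1236 of 11908, in that order). Without melanoma 2 it was 7 of 39 (1639 of 11859), and without both melanoma 2 and control 2 it was 16 of 39 (3669 of 11747). Rescaling each library by its median ratio moved the median of all genes to -0.0054, so that 49.2% of all genes were positive. The split of all called genes was then 1102 higher and 1271 lower, against 1730 higher and 411 lower in TPM, and it was 1286 higher and 868 lower with the mitochondrial genome left out. On the median-ratio scale 36 of 39 of these genes were still positive with a median of 0.29, the exceptions being Ddit3, Dnajb1 and Eif2s1. With the mitochondrial genome left out 39 of 40 were positive with a median of 0.37.

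**Figure D1:**
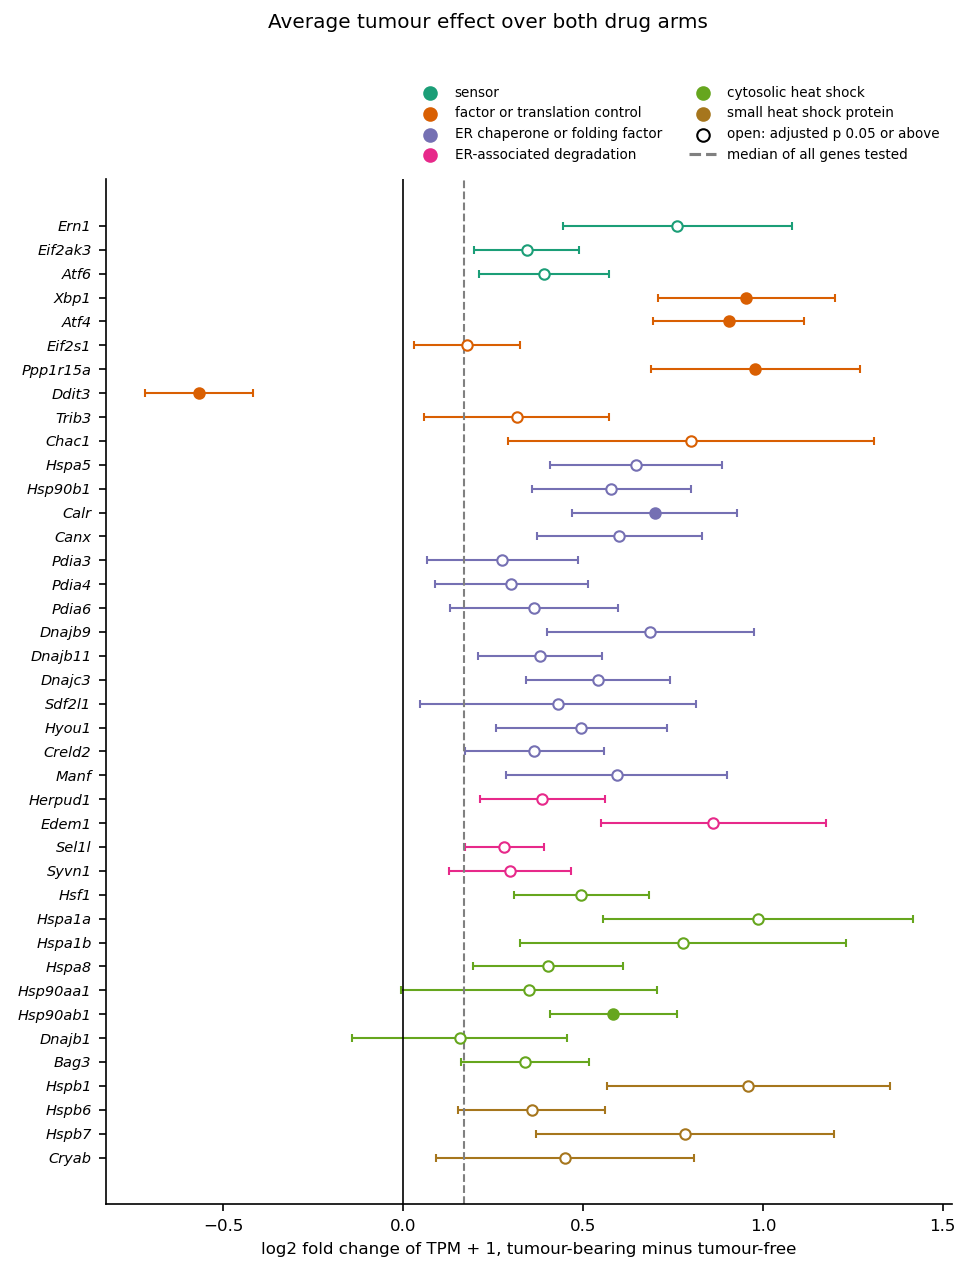
Log2 fold change of TPM + 1 (x axis, tumour-bearing minus tumour-free, averaged over both drug arms) for each of the 40 genes, ordered by role, with bars of 1 SE. Filled points have an adjusted p under 0.05 and the dashed line is the median of all genes tested, 0.17; Ddit3 is the only gene left of 0.

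Of the 3 sensors none passed the test, though each had a positive change. Ern1, which encodes IRE1, changed by 0.76 ± 0.32 (SE, log2; limma, adjusted p = 0.0957), Eif2ak3 by 0.34 ± 0.15 (adjusted p = 0.101) and Atf6 by 0.39 ± 0.18 (adjusted p = 0.126). Ern1 had 11.5, 8.76, 7.44 and 7.85 TPM in melanoma plus lisinopril muscle and 6.90, 45.7, 10.01 and 6.23 TPM in melanoma muscle, against 6.13, 4.98 and 4.53 TPM in lisinopril muscle and 5.81, 8.89, 5.29 and 5.32 TPM in control muscle. The single value of 45.7 TPM, in melanoma 2, was 4.57 times the next highest melanoma library. Without melanoma 2 the change was 0.46 for Ern1 (adjusted p = 0.0521) and 0.25 for Atf6, so this library moved both by over 1.5 times. Without control 2, all 8 tumour-bearing libraries lay above all remaining tumour-free libraries for Ern1, and Eif2ak3 passed with a change of 0.41 (adjusted p = 0.0327).

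Xbp1, the factor made active by IRE1 splicing, rose in tumour-bearing muscle. It had 84.9, 88.9, 60.6 and 113 TPM with melanoma plus lisinopril and 79.1, 235, 68.5 and 80.5 TPM with melanoma, against 36.3, 61.7 and 48.5 TPM with lisinopril and 43.0, 58.3, 33.7 and 56.0 TPM in controls. Of the 8 tumour-bearing libraries 7 lay above every tumour-free library, and the remaining one, melanoma plus lisinopril 3, lay just below lisinopril 2. The change was 0.95 ± 0.25 (SE, log2; 1.94-fold; limma, adjusted p = 0.0218). It was 0.75 without melanoma 2 (adjusted p = 0.0124) and missed the threshold only without lisinopril 1, at an adjusted p of 0.0662, the highest over 23 alternative settings. Xbp1 lies on chr11:5520659-5525893 on the plus strand (GENCODE vM21, GRCm38), with no exon shared with another gene. Gene-level TPM does not separate spliced from unspliced Xbp1 mRNA.

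Atf4, the factor whose translation PERK favours, also rose. Its levels were 390.1, 326, 222 and 415 TPM in melanoma plus lisinopril muscle and 276, 488, 208 and 212 TPM in melanoma muscle, against 158, 193 and 152 TPM in lisinopril muscle and 134, 229.6, 111 and 172 TPM in control muscle. Control 2, at 229.6 TPM, was above 3 of the 8 tumour-bearing libraries, and without it the 8 tumour-bearing libraries all lay above the tumour-free ones. The change was 0.90 ± 0.21 (SE, log2; 1.87-fold; limma, adjusted p = 0.0139). Atf4 kept its call in all 23 alternative settings, with changes of 0.69 to 1.00 and adjusted p-values of 0.00193 to 0.0405. It lies on chr15:80255184-80257541 on the plus strand.

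Ppp1r15a, or GADD34, is the regulatory subunit that directs a phosphatase to eIF2-alpha and ends the block on translation. It had 109.7, 76.2, 40.4 and 100.3 TPM with melanoma plus lisinopril and 52.5, 139.9, 50.6 and 45.4 TPM with melanoma, against 34.9, 37.1 and 32.6 TPM with lisinopril and 34.2, 65.1, 19.4 and 35.2 TPM in controls. Control 2 was above 4 of the 8 tumour-bearing libraries, and every tumour-bearing library was above every other tumour-free one. The change was 0.98 ± 0.29 (SE, log2; 1.97-fold; limma, adjusted p = 0.0350). The call was lost with no filter on low values and without any 1 of control 1, 3 or 4, lisinopril 1, 2 or 3, or melanoma plus lisinopril 1 or 4, where the adjusted p was at most 0.0774. Its exons on chr7:45522916-45526268 (minus strand) overlap Tulp2 on the other strand.

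Ddit3, or CHOP, is the C/EBP-family factor that ATF4 induces in prolonged ER stress. It was the gene among the 40 whose level fell in tumour-bearing muscle. It had 14.6, 21.5, 13.7 and 18.0 TPM in melanoma plus lisinopril muscle and 13.6, 11.2, 17.8 and 15.8 TPM in melanoma muscle, against 21.3, 25.7 and 26.9 TPM in lisinopril muscle and 25.0, 20.4, 16.0 and 31.4 TPM in control muscle. Of the 8 tumour-bearing libraries 5 lay below every tumour-free library, and melanoma 2, where Atf4 was highest, had the lowest Ddit3 level of the 15. The change was -0.57 ± 0.15 (SE, log2; limma, adjusted p = 0.0242). It ranged from -0.77 to -0.49 over 23 alternative settings and was lost without lisinopril 2 or lisinopril 3, with an adjusted p of at most 0.0594. Ddit3 lies on chr10:127290774-127296288 (plus strand), where GENCODE vM21 has a pair of overlapping entries of that symbol and exons of Mars and Gm4189 on the other strand. How strand was counted is not stated in the sources used, so reads of Ddit3 and Mars cannot be told apart. Mars, the methionyl-tRNA synthetase gene, had 35.1 to 79.8 TPM and moved the other way, by 0.54 ± 0.15 (SE, log2; limma, adjusted p = 0.0268).

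The other 3 genes of this role did not pass the test. Chac1, a glutathione-degrading enzyme induced by ATF4, changed by 0.80 ± 0.51 (SE, log2; limma, adjusted p = 0.257). It was at 198, 18.2, 125 and 237 TPM with melanoma plus lisinopril and 41.0, 51.7, 135 and 174 TPM with melanoma, against 48.9, 43.0 and 68.7 TPM with lisinopril and 48.0, 120.3, 26.5 and 52.4 TPM in controls. Its lowest and highest levels of the 15 libraries were both in melanoma plus lisinopril muscle. It passed without melanoma plus lisinopril 2, its lowest library, and with sample-quality weights. Trib3 changed by 0.31 ± 0.26 (adjusted p = 0.377) and Eif2s1, the gene of eIF2-alpha itself, by 0.18 ± 0.15 (adjusted p = 0.385).

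**Figure D2:**
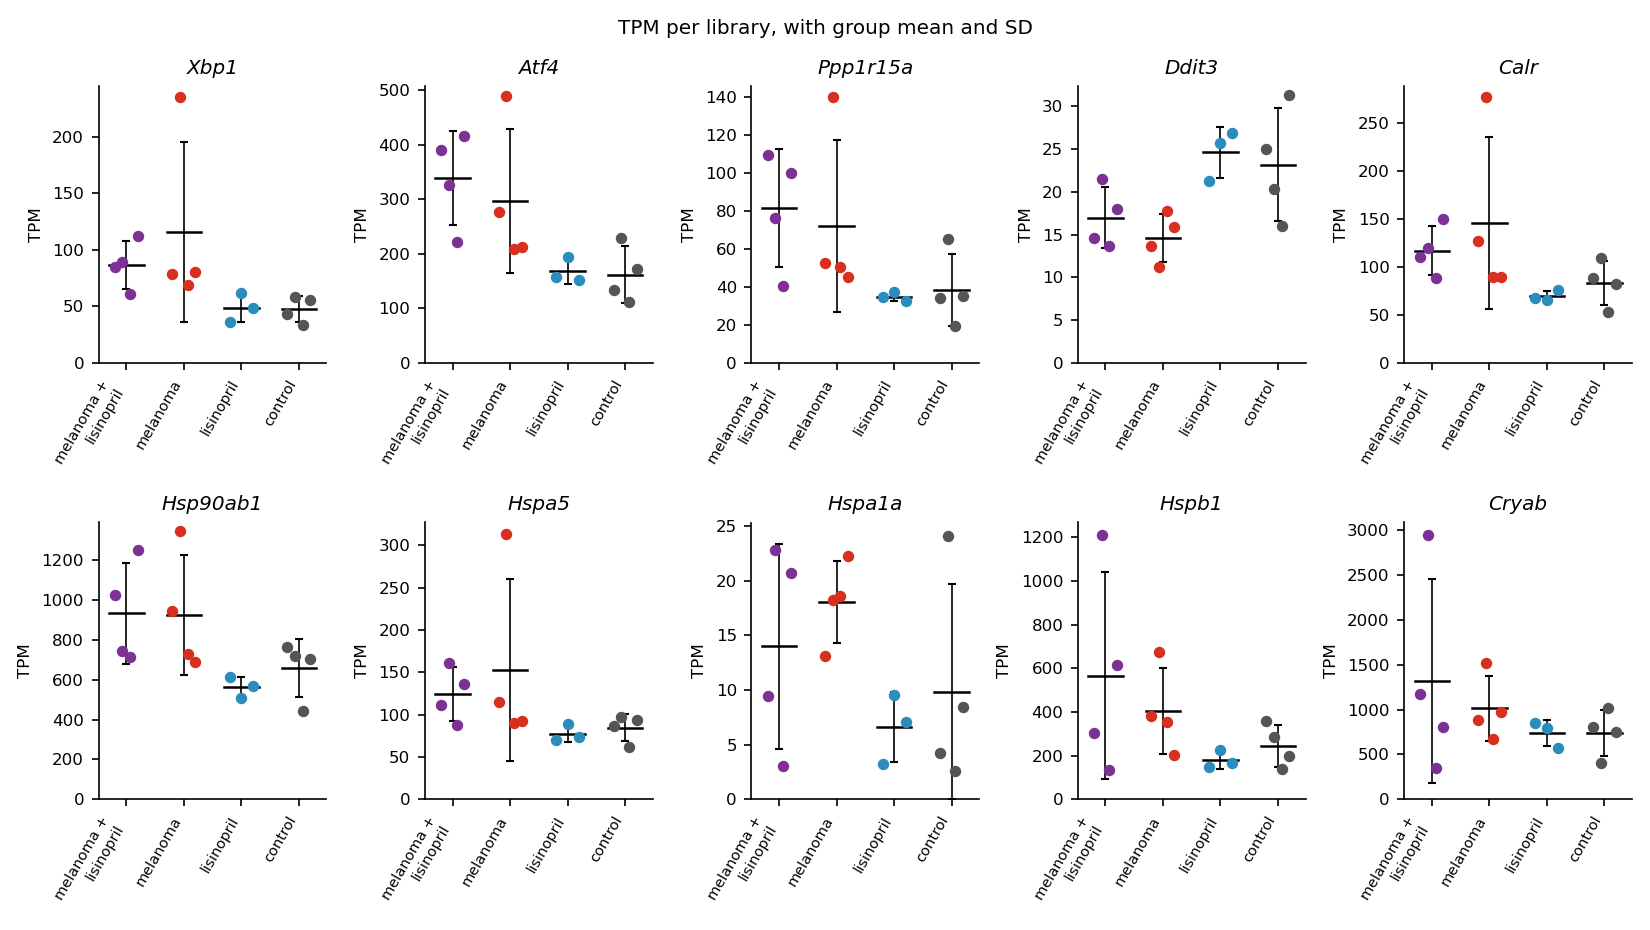
TPM (y axes, from 0) of 10 genes in each library, as points, by group, with a horizontal line at the group mean and a bar of 1 SD that is cut at 0. Xbp1, Atf4 and Ppp1r15a are higher and Ddit3 is lower in both tumour-bearing groups, and melanoma 2 is the high melanoma point for Xbp1 at 235 TPM and Hspa5 at 313 TPM.

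Among the 14 ER chaperones and folding factors all changes were positive, from 0.28 for Pdia3, a disulfide isomerase of glycoproteins, to 0.70 for Calr, but Calr alone passed the test. Calreticulin, its product, binds calcium and newly made glycoproteins. Calr had 111, 119.8, 88.4 and 149.9 TPM with melanoma plus lisinopril and 127, 278, 89.4 and 90.1 TPM with melanoma, against 67.4, 66.2 and 75.7 TPM with lisinopril and 88.5, 109.7, 53.3 and 82.0 TPM in controls. In 5 of the 8 tumour-bearing libraries it was above every tumour-free library. The change was 0.70 ± 0.23 (SE, log2; 1.62-fold; limma, adjusted p = 0.0482), next to the threshold. The call was lost in 13 of 23 alternative settings, at an adjusted p of at most 0.103: with no filter, median-ratio rescaling or the mitochondrial genome left out, and without any 1 of control 1, 3 or 4, lisinopril 1, 2 or 3, melanoma 1, or melanoma plus lisinopril 1, 2 or 4.

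Hspa5 had 111, 161, 87.5 and 136 TPM in melanoma plus lisinopril muscle and 115, 313, 89.6 and 92.5 TPM in melanoma muscle, against 70.3, 88.5 and 73.5 TPM in lisinopril muscle and 86.3, 96.7, 62.1 and 93.5 TPM in control muscle. The groups overlapped, since melanoma 3 and 4 and melanoma plus lisinopril 3 lay among the controls. The change of 0.65 ± 0.24 (SE, log2) missed the threshold (limma, adjusted p = 0.0670). It was 0.44 without melanoma 2 (adjusted p = 0.0575). Of the settings that leave out libraries, it passed without melanoma 4 and without both melanoma 2 and control 2. Others close to the threshold were Dnajc3, a J-domain co-chaperone of BiP, at 0.54 (adjusted p = 0.0671), Canx, the membrane lectin calnexin, at 0.60 (0.0740) and Hsp90b1, the ER Hsp90, at 0.58 (0.0741). Dnajb9, another BiP co-chaperone, changed by 0.69 (0.0961). Without melanoma 2 the changes of Canx and Dnajb9 were smaller, at 0.39 and 0.40, yet both passed (adjusted p = 0.0460 and 0.0323). Without control 2, Dnajc3, Canx and Hsp90b1 passed, at 0.59, 0.66 and 0.65 (adjusted p = 0.0432, 0.0442 and 0.0404).

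ER genes with and without the ERSE letters had overlapping changes. The 10 ER chaperone and degradation genes with a site in the sequences shown above had a median change of 0.46, and 1 of them, Calr, passed the test. The 6 with a matched promoter and neither element had a median of 0.37, and none passed. All 16 changes were positive. No test was made between these small groups.

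None of the 4 genes of ER-associated degradation passed, and all had positive changes. Edem1, a lectin that picks out misfolded glycoproteins, changed by 0.86 ± 0.31 (SE, log2; limma, adjusted p = 0.0634). It had 4.69, 8.81, 3.30 and 7.35 TPM with melanoma plus lisinopril and 5.21, 19.0, 5.03 and 3.20 TPM with melanoma, against 1.86, 2.45 and 2.36 TPM with lisinopril and 3.85, 7.70, 2.06 and 2.84 TPM in controls. All melanoma plus lisinopril libraries were above all lisinopril libraries, while melanoma and control libraries overlapped. Without control 2 its change was larger and passed (adjusted p = 0.0221). Sel1l, the scaffold of the HRD1 ubiquitin ligase, changed by 0.28 (adjusted p = 0.0777), Herpud1, a membrane protein of the same complex, by 0.39 (0.116) and Syvn1, the ligase itself, by 0.30 (0.209).

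Of the 8 cytosolic heat shock genes Hsp90ab1, the constitutive Hsp90, rose and 7 did not pass, with positive changes in all 8. Hsp90ab1 had 1025, 745, 715 and 1248 TPM with melanoma plus lisinopril and 947, 1343, 726 and 687 TPM with melanoma, against 613, 507 and 566 TPM with lisinopril and 763, 718, 445 and 706 TPM in controls. Of the 8 tumour-bearing libraries 4 lay above every tumour-free library. The change was 0.58 ± 0.18 (SE, log2; 1.50-fold; limma, adjusted p = 0.0373). The call was lost in 11 of 23 settings, at an adjusted p of at most 0.0852: with no filter or median-ratio rescaling, and without any 1 of control 3 or 4, lisinopril 1, 2 or 3, melanoma 1 or 2, or melanoma plus lisinopril 1 or 4.

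The stress-inducible Hsp70 gene Hspa1a had 9.42, 22.8, 3.07 and 20.7 TPM in melanoma plus lisinopril muscle and 13.1, 18.2, 18.6 and 22.3 TPM in melanoma muscle, against 3.23, 9.56 and 7.09 TPM in lisinopril muscle and 4.25, 24.1, 2.57 and 8.43 TPM in control muscle. Control 2 held the highest level of all 15 libraries. The change was 0.99 ± 0.43 (SE, log2; limma, adjusted p = 0.108), and without control 2 it was 1.26 (adjusted p = 0.0221). Without melanoma plus lisinopril 3 it also passed. Hspa1a and Hspa1b are near-identical copies that lie side by side on chromosome 17, so the division of reads between them is uncertain. Control 2 was also the highest library for Hspa1b, for Hsp90aa1, the inducible Hsp90, and for Dnajb1, the Hsp40 partner of Hsp70, whose changes were 0.78 (adjusted p = 0.217), 0.35 (0.484) and 0.16 (0.722). Without control 2 Hspa1b and Hsp90aa1 passed, at 1.12 (0.0241) and 0.65 (0.0492), and Dnajb1 was at 0.29 (0.443). The summed TPM of red blood cell genes was 23990 in control 2, against at most 4212 in the other tumour-free libraries. The part of blood in these levels was not tested.

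Hsf1, the heat shock factor, changed by 0.50 (limma, adjusted p = 0.0729). Hspa8, the constitutive Hsp70, changed by 0.40 (0.167) and Bag3, a co-chaperone of chaperone-assisted autophagy in muscle, by 0.34 (0.173). Hspa8 was at 569, 1114, 392 and 820.2 TPM with melanoma plus lisinopril and 749.5, 423, 452 and 388 TPM with melanoma, against 394, 453 and 454 TPM with lisinopril and 419, 550.3, 333 and 450.5 TPM in controls. Melanoma plus lisinopril 1, 2 and 4 and melanoma 1 lay above every tumour-free library, and melanoma 2 did not.

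None of the 4 small heat shock proteins passed the test, and their changes were all positive, from 0.36 to 0.96. Hspb1, or Hsp25 in the mouse, had 304, 1212, 136 and 613 TPM with melanoma plus lisinopril and 380.3, 675, 355 and 205 TPM with melanoma, against 147, 227 and 166 TPM with lisinopril and 358, 286, 138 and 200.4 TPM in controls. Cryab had 1168, 2944, 348 and 803 TPM with melanoma plus lisinopril and 888, 1522, 667 and 973 TPM with melanoma, against 851, 789.8 and 574 TPM with lisinopril and 801, 401, 1022 and 749 TPM in controls. For both genes the melanoma plus lisinopril group alone held the lowest and the highest level of the 15 libraries. The change was 0.96 ± 0.39 (SE, log2; limma, adjusted p = 0.0911) for Hspb1 and 0.45 ± 0.36 (adjusted p = 0.366) for Cryab. Hspb1 passed only without melanoma plus lisinopril 3, and Cryab in none of 23 settings. Exons of Cryab overlap those of Hspb2, at 49.4 to 104 TPM, and exons of Hspb6 overlap Lin37 and Proser3.

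Melanoma 2 was the highest of the 15 libraries for 27 of the 40 genes, or 67.5%, against 29.1% of all genes tested. These were all 3 sensors, 4 of the 7 factors, all 14 ER chaperones, 3 of the 4 degradation genes, 2 of the 8 cytosolic heat shock genes (Hsf1 and Hsp90ab1) and Hspb7, a small heat shock protein of heart and skeletal muscle. The summed TPM of the 14 ER chaperones was 558, 713, 471 and 686 with melanoma plus lisinopril and 603, 1551, 477 and 466 with melanoma, against 365, 428 and 391 with lisinopril and 477, 582, 326 and 459 in controls. Melanoma 2 thus had more than any other library. Melanoma 3 and 4 and melanoma plus lisinopril 1 and 3 lay within the range of the controls. Dnajb9 was 4.39 times and Manf, a secreted ER stress protein, 3.28 times the next highest melanoma library. Without melanoma 2 the tumour effect averaged over drug arms was smaller by over 1.5 times in 13 of the 39 genes tested: Ern1, Atf6, Eif2s1, Canx, Pdia3, Pdia4, Pdia6, Dnajb9, Dnajb11, Sdf2l1, Hyou1, Manf and Syvn1. All 13 kept their sign. Without control 2 it was larger by that much for Hsp90aa1 and Dnajb1 and smaller for Hspb6, at 0.24.

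The small heat shock proteins had a different leading library. Their sum was 3393, 7539.9, 1267 and 3080.1 TPM with melanoma plus lisinopril and 2929.6, 5642, 2312 and 2625 TPM with melanoma, against 2138, 2289 and 1522 TPM with lisinopril and 3188, 1531, 2541 and 2171 TPM in controls. Melanoma plus lisinopril 2 was highest for Hspb1, Hspb6 and Cryab and also for Hspa8 and Bag3, 12.5% of the 40 genes against 5.07% of all genes. Control 3 was the lowest library for 22 of the 40 genes, or 55.0%, against 27.0% of all genes, and had the highest mitochondrial share, 52.8%.

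**Figure D3:**
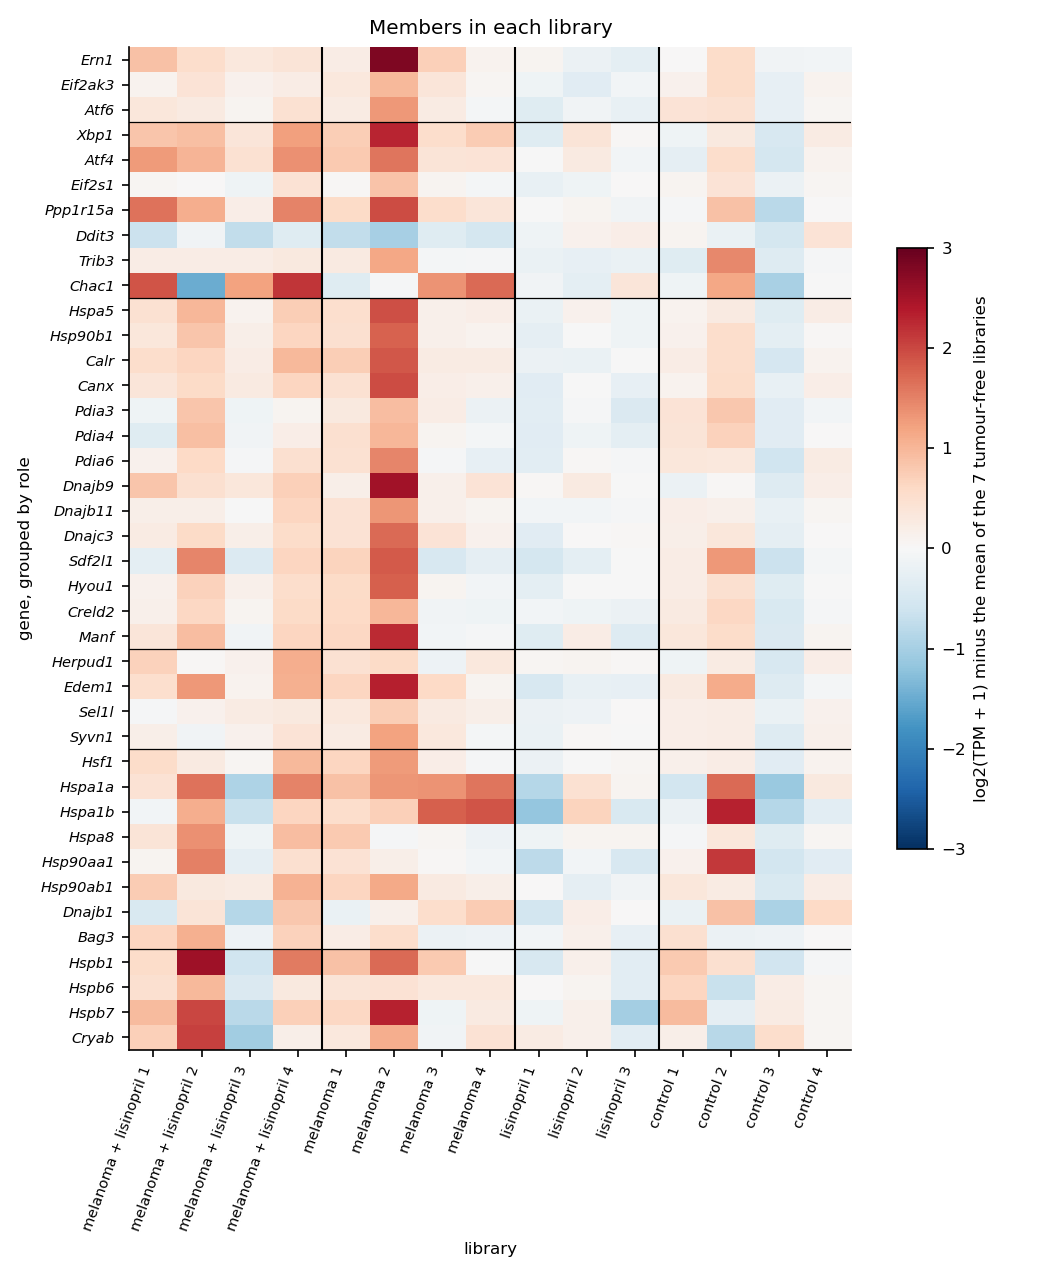
Difference of log2(TPM + 1) in each library from the mean of the 7 tumour-free libraries, for the 40 genes in rows, ordered by role, and the 15 libraries in columns. Red is higher and blue is lower, and the column of melanoma 2 is the reddest across the sensors and ER chaperones, of which it is the highest library for all 17.

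**Figure D4:**
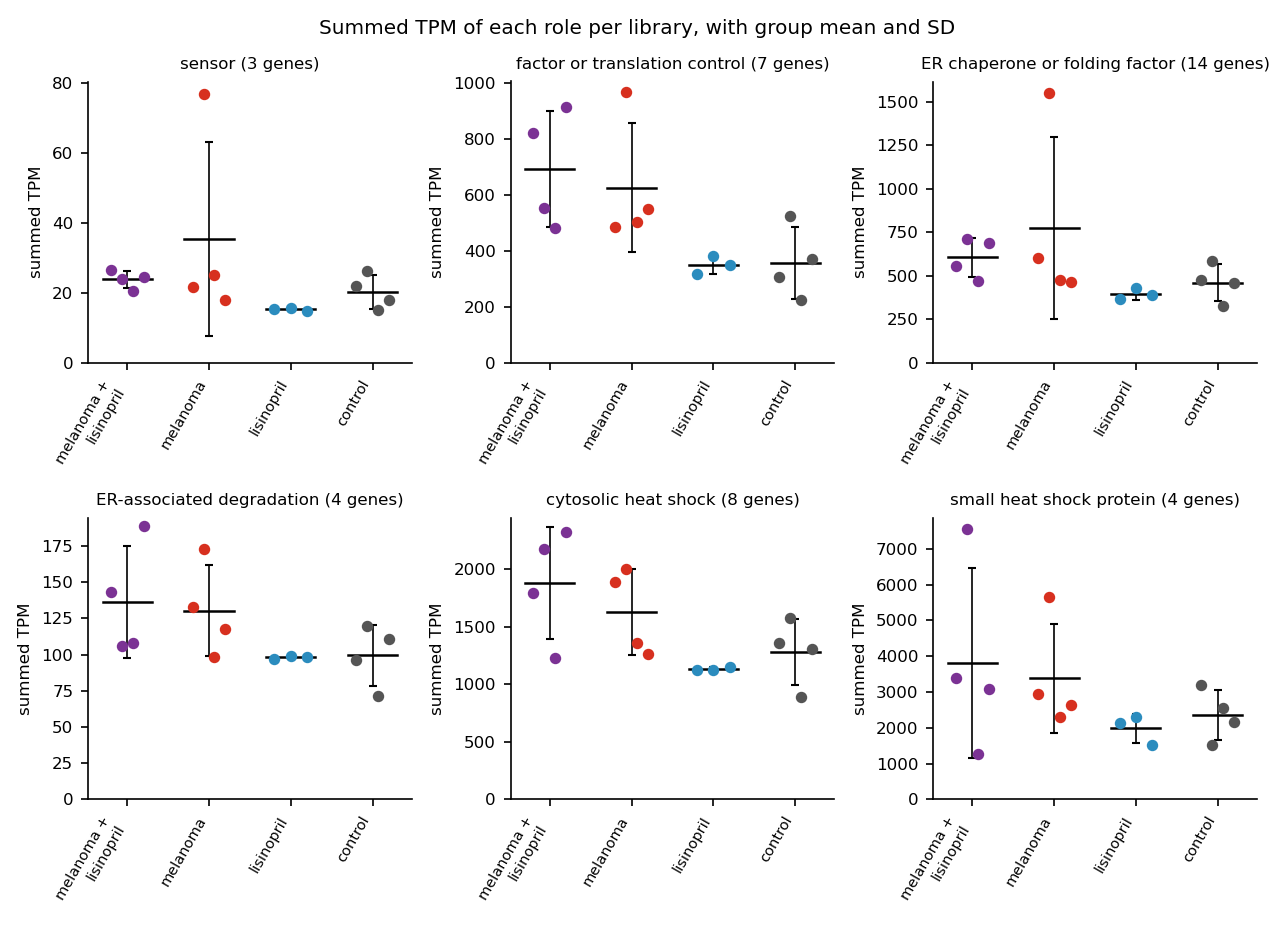
Summed TPM (y axes, from 0) of the genes of each role in every library, as points, by group, with group means and SD. Melanoma 2 stands at 1551 TPM for the ER chaperones and melanoma plus lisinopril 2 at 7539.9 TPM for the small heat shock proteins.

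Cell type markers moved with some of these libraries. Neutrophil markers summed to 349 TPM in melanoma 2, the highest of all libraries, against 32.5 to 214 TPM in the other tumour-bearing libraries and 10.5 to 97.8 TPM in the tumour-free ones. Muscle fibre markers summed to 60883 TPM in melanoma 2, the lowest of all libraries, against 69562 to 105572 TPM in tumour-free muscle. The genes of this list did not move together. In melanoma 2, Acta1, Mylpf and Tnnc2 lay below every tumour-free library, and Des, Ttn and Tnni2 lay above every one. Ckm, Tnnt3 and Actn2 lay within the tumour-free range. Plasma and B cell markers, whose cells hold much ER, summed to 4.29 TPM in melanoma 2, within 4.29 to 23.3 TPM in tumour-bearing muscle, against 36.3 to 235 TPM in tumour-free muscle. Macrophage markers spanned 116 to 343 TPM with a tumour and 64.8 to 439 TPM without. Melanocyte and melanoma markers summed to 13.1 TPM in melanoma 2, the highest of all libraries. The range was 5.93 to 13.1 TPM in tumour-bearing muscle, against 4.50 to 6.54 TPM in tumour-free muscle. In 6 of the 8 tumour-bearing libraries the sum was above every tumour-free library. Of these markers 1 of 7, Mitf, passed the filter. Tyr was at 0 in every library, and no library had more than 0.327 TPM of Pmel or 0.152 TPM of Mlana. The 8 markers of slow fibres, which are rich in small heat shock proteins, summed to 270 TPM in melanoma plus lisinopril 2. That was within the tumour-free range of 110 to 714 TPM and below the tumour-free median of 427 TPM. The sum was led in level by Myh2, a myosin of fast IIa fibres, so Myh7 and Myl2 are also given alone. The other slow markers are not given singly, so Myh7 and Myl2 do not stand for the list. In melanoma plus lisinopril 2, the highest library for Hspb1 and Cryab, Myh7 was at 6.25 TPM and Myl2 at 10.1 TPM, against at most 1.47 TPM of Myh7 and 5.16 TPM of Myl2 in tumour-free muscle. Myh7 was higher still in melanoma plus lisinopril 4 and melanoma 4, at 59.3 and 12.4 TPM, and the other 5 tumour-bearing libraries had at most 0.891 TPM. The part of neutrophils, melanoma cells and fibre types in the levels of the 40 genes was not tested.

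Within each drug arm alone no gene of the 40 passed the test. For melanoma against control the background was 0.646% of all genes, and for melanoma plus lisinopril against lisinopril it was 1.48%. By direction the background was 0.461% higher and 0.185% lower for melanoma against control, and 1.34% higher and 0.143% lower for melanoma plus lisinopril against lisinopril. For melanoma against control 7 of the 40 genes had an unadjusted p under 0.05 and the lowest adjusted p was 0.127 (Xbp1; limma, Benjamini-Hochberg). For melanoma plus lisinopril against lisinopril it was 8 genes and an adjusted p of 0.109 (Atf4). The share of all genes with an unadjusted p under 0.05 was not counted in either arm. The change of Xbp1 was 1.09 ± 0.33 for melanoma against control and 0.82 ± 0.36 for melanoma plus lisinopril against lisinopril (SE, log2). The change of Atf4 was 0.83 ± 0.29 without lisinopril and 0.98 ± 0.31 with it. For Ppp1r15a it was 0.85 ± 0.39 without lisinopril and 1.11 ± 0.43 with it, and for Ddit3 -0.61 ± 0.21 without and -0.53 ± 0.22 with it. The comparisons have no library in common, and 38 of 40 genes, or 95%, were positive in both, against 58.7% of all genes. Ddit3 was negative in both and Hsp90aa1 differed in sign. Hsp90aa1 had 136 TPM in control 2, against 33.7, 20.6 and 23.9 TPM in the other controls and 28.8 to 42.2 TPM with melanoma. The changes of all 40 in melanoma against control had a median of 0.46, which was 0.19 without melanoma 2, when 30 of 39 genes were positive.

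No gene of the 40 had all 8 tumour-bearing libraries above all 7 tumour-free ones, against 1.49% of all genes, and none had all of them below, against 0.839%. Without control 2, Ern1, Atf4 and Ppp1r15a had all 8 above, 3 of 40 against 9.23% of all genes, and none had all 8 below, against 1.93%. Xbp1 was the gene with every melanoma library above every control library, against 5.33% of all genes, and none had every melanoma library below, against 2.89%. Every melanoma plus lisinopril library was above every lisinopril library for 16 of the 40, against 29.0% of all genes, and below it for none, against 4.41%.

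**Figure D5:**
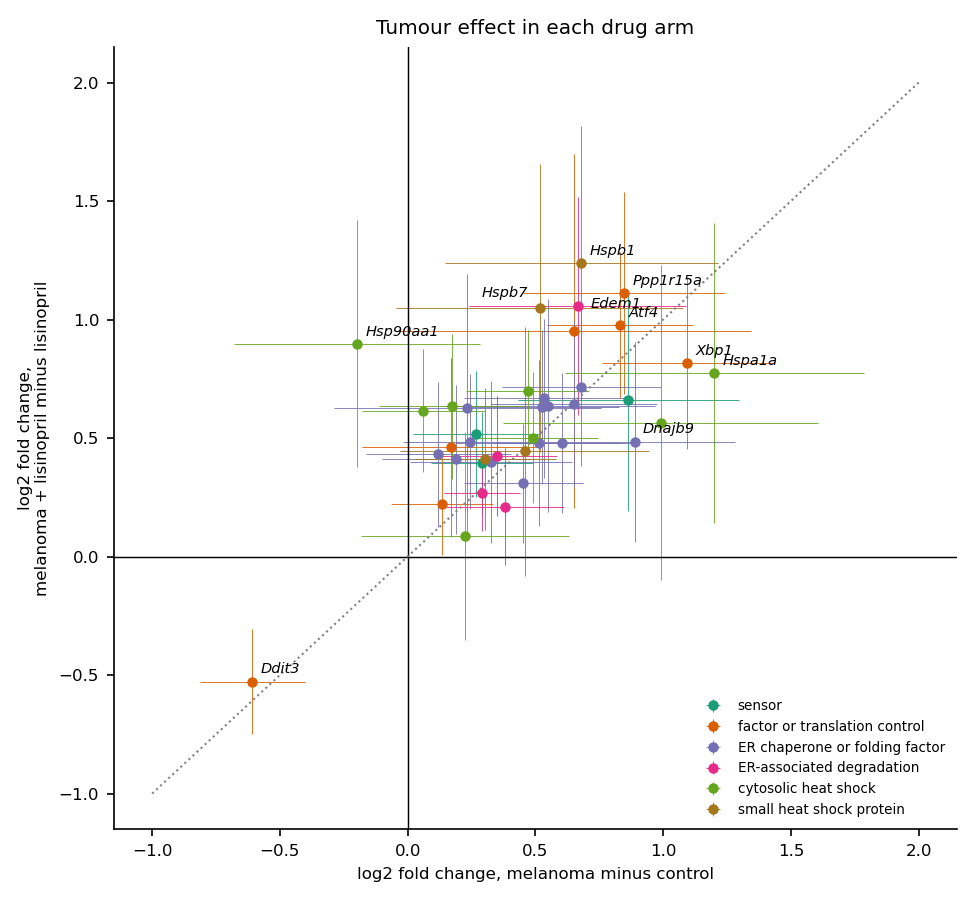
Log2 fold change of TPM + 1 for melanoma minus control (x axis) and for melanoma plus lisinopril minus lisinopril (y axis) for the 40 genes, coloured by role, with bars of 1 SE and a dotted line of equal change. Of the 40, 38 lie in the upper right, Ddit3 lies in the lower left and Hsp90aa1 in the upper left.

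No change with lisinopril passed the test among the 40 genes. For lisinopril against control, for melanoma plus lisinopril against melanoma, for the drug effect averaged over tumour status and for the interaction of tumour and drug, 0 of 40 genes had an adjusted p under 0.05 (limma, Benjamini-Hochberg), 0 had an unadjusted p under 0.05, and 0% of all genes were called. Changes in the drug effect averaged over tumour status ran from -0.77 for Hspa1b (95% interval -1.74 to 0.19) to 0.24 for Hspa8 (-0.21 to 0.68), with a median of -0.19 against -0.13 over all genes. The median rested on melanoma 2: without it, it was -0.0098 with 17 of 39 genes positive, and without melanoma 2 and control 2 it was 0.063 with 24 of 39 positive. For melanoma plus lisinopril against melanoma the median was -0.13, and 0.19 without melanoma 2, against -0.064 and -0.012 over all genes. For lisinopril against control it was -0.20, and -0.067 without control 2, against -0.18 and -0.11 over all genes. On the median-ratio scale the median for lisinopril against control was 0.0021, against -0.010 over all genes. For the drug effect averaged over tumour status, the 95% interval was -0.63 to 0.42 for Xbp1 and -0.28 to 0.62 for Atf4. It was -0.17 to 0.48 for Ddit3 and -0.63 to 0.39 for Hspa5. An averaged drug effect of the size of the tumour effect was outside the interval for each of these 4 genes, narrowly for Hspa5. Such an effect was inside the interval given above for Hspa1b, as a fall, and for Hspa8, as a rise. Other genes of the 40 were not compared in this way. For the interaction, the difference between the tumour effects with and without the drug, the interval was -1.33 to 0.77 for Xbp1 and -0.75 to 1.04 for Atf4. These intervals are wide, and a difference of that size between the arms was not detectable with 3 or 4 libraries a group. Hsp90aa1 had the largest interaction of the 40, at 1.10 (-0.42 to 2.61). This value includes control 2, which had 136 TPM of Hsp90aa1, against at most 33.7 TPM in the other tumour-free libraries.

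Genes of the same pathways outside the 40 were taken from lists and are counted against the background of 18.0% in the tumour effect averaged over drug arms. Of 24 targets of ATF4 and the integrated stress response that were tested, 6 were called higher and none lower, with a median change of 0.38. Of the 24 changes 7 were negative. The largest were Eif4ebp1, an inhibitor of cap-dependent translation, at 2.40, Ddit4, an mTORC1 inhibitor, at 1.16, Slc3a2, the heavy chain of amino acid transporters, at 1.06 and Sqstm1, the autophagy receptor p62, at 0.96 (log2; limma, adjusted p at most 0.0473). Slc3a2 was at 18.8 to 51.2 TPM (median 29.9) in tumour-bearing muscle and 10.1 to 27.5 TPM (median 13.9) in tumour-free muscle.

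Of 25 further genes of ER-associated degradation, 6 were called higher and 1 lower, with a median of 0.35. Ube2j1, the ubiquitin-conjugating enzyme of this pathway, was at 28.1 to 53.2 TPM (median 34.3) in tumour-bearing and 16.0 to 26.3 TPM (median 19.6) in tumour-free muscle, with no overlap, and changed by 0.85 ± 0.15 (SE, log2; limma, adjusted p = 0.00413). Nploc4, a cofactor of the p97 segregase, rose by 0.79, Herpud2 by 0.70 and Ubxn6, another p97 cofactor, by 0.66, while the ligase gene Rnf5 fell by 0.44 as the single lower gene, chosen for naming after its value was seen. Of 45 genes of the secretory pathway and oxidative folding, 3 were higher and none lower, with a median of 0.28. These were P4hb, the founding protein disulfide isomerase, at 0.79, Sec63, a partner of the translocon, at 0.64 and Ddrgk1, of the UFM1 pathway, at 0.55. P4hb was at 137 to 481 TPM with a tumour, 481 TPM being melanoma 2, and 80.4 to 132 TPM without.

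Of 59 further cytosolic heat shock proteins and co-chaperones, 7 were higher and 1 lower, with a median of 0.17, against 0.17 over all genes. Fkbp5, an Hsp90 co-chaperone of steroid receptors that glucocorticoids induce, rose by 3.08 and Flnc, the muscle filamin that BAG3 handles, by 1.50. Bag5 rose by 0.66 and Ptges3l, a p23-like gene, fell by 1.21. Of 17 mitochondrial chaperones and proteases none was higher and Pmpcb, of the presequence peptidase, was lower at -0.32, with a median of 0.0090. Ddit4, Ddrgk1, Nploc4, Ubxn4 and Rnf185 lost their calls both on the median-ratio scale and with the mitochondrial genome left out, so 3 genes of ER-associated degradation were called higher on either scale. Ddit4 and Ddrgk1 were also not called without melanoma 2. On the median-ratio scale the list medians were 0.25 for the ATF4 targets, 0.14 for degradation and 0.095 for secretion and folding. They were -0.027 for the cytosolic and -0.20 for the mitochondrial list. Called lower on that scale were 2 ATF4 targets (Mthfd2 and Shmt2), 1 gene of degradation (Rnf5) and 1 of secretion and folding (Txndc5). So were 5 cytosolic and 4 mitochondrial genes, and 1271 of all 11882 genes. Without control 2, when 3953 of 11809 genes were called, the genes called higher were 11 ATF4 targets, 11 of degradation, 17 of secretion and folding, 14 cytosolic and 1 mitochondrial. These counts were added after the data were seen. Within the drug arms, Fkbp5 and Vldlr, a lipoprotein receptor of the ATF4 list named after its value was seen, passed for melanoma plus lisinopril against lisinopril, and none of the listed genes passed for melanoma against control.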

How the data were processed

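Libraries were made with a TruSeq stranded mRNA kit and sequenced on an Illumina NovaSeq, per the labels' protocols, which call the replicates biological. The authors deposited TPM values for 47643 symbols. Their build was mm10, per the submitters' processing notes. Aligner, annotation, strand setting and filters: not given in the sources used here. TPM are relative, so 1 abundant transcript lowers the rest.

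Genes with at least 1 TPM in at least 3 libraries (11923) were tested as log2(TPM + 1), whose fold changes understate those of low genes, with limma 3.58.1 in R 4.3.3: 4 group means over 15 libraries, a trended prior, two-sided tests and Benjamini-Hochberg adjustment, threshold 0.05. Code was tested on simulated data. No replicate pairing was used. Alternatives changed the pseudocount, filter, scale, weights, block and libraries. The 40 genes and the pathway lists were chosen with earlier results of these data known; a list's genes were named where called, up to 4 by size. Promoters were scanned in RefSeq GRCm38.p6 windows of 300 bases, and exon overlaps came from GENCODE vM21.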

Additional observations from a re-analysis of the deposited data

Results flagged for a closer look

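In groups of 4 libraries, the gap between the most extreme library and its nearest neighbour was set against the range of the group, both on log2(TPM + 1), for 10 genes and the 6 role sums. It exceeded the critical share of 0.829 in 3 of 48 groups, where chance alone flags about 1 in 20, or 2.4 groups. Xbp1 was 235 TPM in melanoma 2, against 80.5 TPM in the next melanoma library, a gap of 0.870 of the log2 range. Ppp1r15a was 139.9 TPM in melanoma 2, against 52.5 TPM in the next, a gap of 0.872. Hsp90ab1 was 445 TPM in control 3, the lowest of its group, against 706 TPM in the next, a gap of 0.856. On the TPM scale, tried after the data were seen, 6 groups exceeded it, all with melanoma 2 highest: Xbp1, Ppp1r15a, Hspa5 and the sums of the sensors, the factors and the ER chaperones, while Hsp90ab1 did not.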

How the results depend on the processing

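The number of the 40 genes called in the tumour effect averaged over drug arms was 6. Counts over all genes tested are given in brackets. The number was 3 with no filter on low values (1337 of 21659) and 16 with sample-quality weights (4660 of 11923). It was 16 without control 2 and melanoma 2 (3669 of 11747), and 2 to 14 when 1 library was left out (743 to 3953). For melanoma plus lisinopril against lisinopril it was 0 (177 of 11923), and became 9 with the weights (2303 of 11923). It became 10 without control 2 and melanoma 2 (1918 of 11747) and 4 when only the groups compared were fitted (954 of 11254). With 1 library left out it was 0 to 2 (5 to 685). For melanoma against control it was 0 (77 of 11923), became 2 with the weights (1710 of 11923) and stayed 0 for each library left out. The cause was not tested. Both drug comparisons, the average drug effect and the interaction gave 0 in every alternative run. Over all genes the count in the averaged tumour effect ranged from 743 to 4660, against 2141. The replicate numbers did not pair the libraries: correlations of same-numbered libraries ran from -0.15 to 0.36 over 21 pairs, and 4 of 15 libraries correlated best with their own number. With the replicate block the count of 6 became 11, Hspa5 among them (2172 of 11923 over all genes). None of the 10 genes plotted by library changed direction in any alternative; Dnajb1 and Eif2s1, not called in TPM, were negative on the median-ratio scale. TPM carry no read depth, so the limit that depth sets on Trib3 and other low genes is unknown.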
